A study of Mus musculus with 6 samples.

Results

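The 10 genes described here encode transcription factors that specify or maintain endothelial identity, and they are 10 of the 24972 gene symbols in the deposited RNA-Seq table. They were chosen by name from several DNA-binding families: the ETS factors *Erg*, *Fli1* and *Ets1*, the SOXF factors *Sox7* and *Sox18*, the hematoendothelial pair *Tal1* and *Gata2*, the forkhead factors *Foxf1* and *Foxo1*, and the MADS-box factor *Mef2c*. The samples were isolated lung endothelial cells (iLECs), CD31-positive cells taken with antibody-coated magnetic beads from digested lungs of mice at P7. There were 3 control and 3 *Atp6ap2* iECKO libraries. *Atp6ap2* encodes the prorenin receptor, an accessory subunit of the vacuolar proton pump. Every mouse carried the floxed *Atp6ap2* allele and received tamoxifen (100 μg) on each of P1 to P3. The *Atp6ap2* iECKO mice also carried Cdh5-CreERT2, a tamoxifen-inducible Cre recombinase under the promoter of the endothelial gene *Cdh5*, and the controls carried no Cre. An effect of Cre activity therefore cannot be told apart from the loss of *Atp6ap2*. The labels give the strain as C57BL/6, whereas the study's methods describe a mixed background of CD1 and C57BL/6. Nothing states whether a sample was 1 mouse or a pool.

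Endothelial genes are switched on by combinations of these factors acting on shared enhancers. ETS factors recognise a GGAA core that is found in the control regions of nearly all endothelial genes, SOXF and forkhead factors bind beside them, TAL1 and GATA2 sit in one complex with LMO2 and LDB1, and MEF2 factors are held in check by class IIa histone deacetylases. In the lung, *Foxf1* is used by endothelial and mesenchymal cells and is needed for the alveolar capillaries, and *Foxo1* restrains endothelial growth when insulin and growth factor signalling is low.

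Values are normalized counts, estimated read counts per gene that the authors had already scaled between libraries. The control libraries summed to 26359661 to 28725799 normalized counts each, and those of *Atp6ap2* iECKO cells to 26243878 to 27221581. *Atp6ap2* itself was at 7490.2, 5815 and 5681 in the control libraries and at 4219.9, 2336 and 1982 in the *Atp6ap2* iECKO libraries. The log2 fold change was -1.22 (SE 0.26, adjusted *P* = 0.0306, limma with Benjamini-Hochberg adjustment). Only the fit without *Atp6ap2* iECKO replicate 1, the library with the most *Atp6ap2* transcript left, kept this below 0.05 when 1 library was left out. All 6 labels give a male genotype (fl/Y). *Xist*, the transcript of the inactive X chromosome, was nevertheless at 37704, 44402 and 31.7 in the control libraries and at 39442, 19.3 and 47487 in the *Atp6ap2* iECKO libraries, so 4 of the 6 do not match that label. By the study's methods, neonates of both sexes were used, and its groups include females with 2 floxed alleles. High and low *Xist* occurred in both genotypes, 2 libraries against 1 in each.

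None of the 10 lineage factors passed the threshold. Each was tested in the same fit as 14456 genes (limma on log2 values with a pseudocount of 1, for genes reaching 10 in at least 3 libraries, Benjamini-Hochberg adjustment, threshold 0.05), in which 8.25% of all genes were called, 4.97% lower and 3.28% higher in *Atp6ap2* iECKO cells. Those calls were 474 higher and 719 lower, against 176 higher and 445 lower with 10 endothelial genes made equal between libraries, and the 10 factors stayed below 0 and uncalled on either scale. At an unadjusted *P* below 0.05 the count was 1 of 10 (*Foxf1*), against 23.9% of all genes. The 10 log2 fold changes lay between -0.27 and -0.068, all below 0, where 49.3% of all genes were. Their median was -0.16, against 0.0049 over all genes. The 95% interval of each factor lay within a 2-fold change in either direction (71.2% of all genes), and that of 9 within 1.5-fold (47.1%), with *Sox18* as the exception. Expression was high, with the mean of each factor between the 88.1 and 99.6 percentile of the genes tested.

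**Figure D1:**
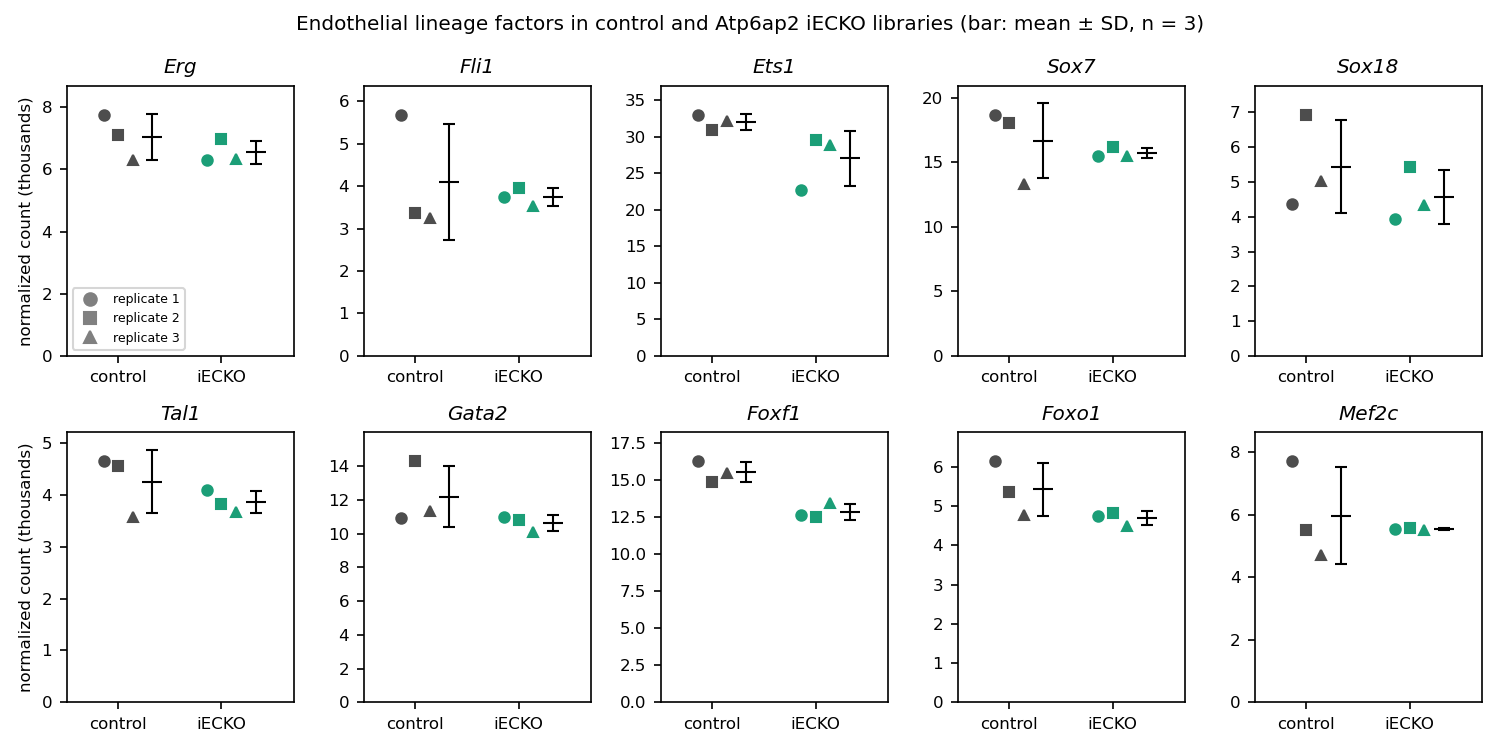
Normalized counts (vertical axes from 0) of the 10 lineage factors in each control (grey) and *Atp6ap2* iECKO (green) library, with the mean and SD of 3 libraries beside the points. The genotypes are apart for *Foxf1* and *Ets1* and overlap for the other 8.

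*Erg* and *Fli1*, closely related ETS factors that keep junction and quiescence genes on, did not pass the threshold. *Erg* (chr16:95359169-95586593, minus strand, GRCm38) was at 7749, 7116 and 6284 in the control libraries and at 6300.3, 6983 and 6340.3 in the *Atp6ap2* iECKO libraries. The ranges overlapped, and the log2 fold change was -0.10 (SE 0.098, 95% interval -0.33 to 0.12, adjusted *P* = 0.575). *Fli1* (chr9:32422204-32542861, minus strand) was at 5677, 3359 and 3249.9 in controls and at 3738, 3955 and 3534 in *Atp6ap2* iECKO cells. Here 1 library, control replicate 1, stood above the other 5, and the control coefficient of variation was 33.5%, against 5.62% in *Atp6ap2* iECKO cells. The log2 fold change of *Fli1* was -0.082 (SE 0.20, 95% interval -0.54 to 0.38, adjusted *P* = 0.846). Without control replicate 1 it was 0.18 (adjusted *P* = 0.248), so its sign rests on that library.

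*Ets1* is a growth-responsive ETS factor. At its locus (chr9:32636221-32757820, plus strand) the values were 32984, 30896 and 32197 in controls and 22736, 29562 and 28876 in *Atp6ap2* iECKO cells. Every *Atp6ap2* iECKO library lay below every control library, with replicate 1 the lowest. The mean was 84.5% of control and the log2 fold change -0.25 (SE 0.12, 95% interval -0.54 to 0.033, adjusted *P* = 0.264). The exact two-sided permutation test gave *P* = 0.1, the smallest value that 3 samples against 3 allow. Groups that do not overlap occurred in 29.8% of all genes tested, and in 15.0% with *Atp6ap2* iECKO cells lower.

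ETS genes resemble each other in the DNA-binding domain, so it was asked how much of their transcripts reads could share. The longest stretches of identical coding bases between the members, read from the GENCODE M21 transcripts on the coding strand, are shown because they are shorter than a usual sequencing read.
Erg and Fli1 (22 bases, chr16:95361164-95361185 and chr9:32424143-32424164): ggaagagcaagcccaacatgaa
Fli1 and Ets1 (21 bases): gatccagctgtggcagtttct
Sox7 and Sox18 (20 bases): cccaactacaagtaccggcc
Of the 31-base words in the transcripts of each of the 10 genes, 0% to 0.80% occur in the same orientation in any other gene. The opposite orientation was not searched. *Sox18*, *Tal1* and *Gata2* share none. *Foxo1* shares the most, 69 of 8635, and *Foxf1* shares 12 of 2385, of which 11 are found in *Foxf2*. Genes annotated across *Fli1*, *Ets1*, *Foxf1* and *Foxo1* have no row of their own in the table, and the library kit does not mark strand. These overlaps are of whole gene spans, and shared exons were not examined. The part of reads from such genes in the values of the 4 factors was not tested.

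*Sox7* and *Sox18* belong to the SOXF group, which acts in arterial and lymphatic specification and in part redundantly with *Sox17*. *Sox7* (chr14:63943673-63950732, plus strand) was at 18676, 18047 and 13346 in controls and at 15531, 16181 and 15525 in *Atp6ap2* iECKO cells. All *Atp6ap2* iECKO values fell between the lowest and the other control libraries, and the log2 fold change was -0.068 (SE 0.13, 95% interval -0.38 to 0.24, adjusted *P* = 0.806). It was 0.021 without control replicate 1 (adjusted *P* = 0.947). *Sox18* (chr2:181669836-181671640, minus strand) was at 4369, 6930.3 and 5034 in controls and at 3929, 5442 and 4327 in *Atp6ap2* iECKO cells. Replicate 2 was the highest in both genotypes, and the ranges overlapped. *Sox18* had the widest interval of the 10 after *Fli1*, with a log2 fold change of -0.24 (SE 0.18, 95% interval -0.66 to 0.18, adjusted *P* = 0.481). *Sox17*, the remaining SOXF gene, was at 5993, 5756 and 5401 in controls and at 5971, 5421 and 5449 in *Atp6ap2* iECKO cells, a log2 fold change of -0.026 (95% interval -0.21 to 0.16, adjusted *P* = 0.88).

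*Tal1* and *Gata2* are shared by endothelial cells and blood progenitors. *Tal1* (chr4:115056426-115071755, plus strand), a basic helix-loop-helix factor, was at 4641, 4559.9 and 3561 in controls and at 4095, 3819 and 3673 in *Atp6ap2* iECKO cells. Control replicate 3 was the lowest of the 6 and the other 2 controls were the highest, with a log2 fold change of -0.13 (SE 0.11, 95% interval -0.39 to 0.13, adjusted *P* = 0.544). *Gata2* (chr6:88193891-88207032, plus strand), a zinc finger factor, was at 10936, 14279 and 11357 in controls and at 10988, 10792 and 10098 in *Atp6ap2* iECKO cells. Control replicate 2 stood above the rest and the groups overlapped at control replicate 1. The log2 fold change of *Gata2* was -0.19 (SE 0.11, 95% interval -0.45 to 0.075, adjusted *P* = 0.371). Blood cells in a bead isolate also use both genes. Of 14 tested markers of megakaryocytes, erythroid cells and mast cells 0 passed the threshold. Their summed normalized count ranged from 14057 to 44750.1 in controls and from 13544 to 21818.5 in *Atp6ap2* iECKO libraries, and their part in the *Tal1* and *Gata2* values was not tested.

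*Foxf1* came nearest to the threshold. At the locus (chr8:121084386-121088144, plus strand) the values were 16284, 14911 and 15478 in controls (mean 15558 ± 689.9, SD, n = 3) and 12662, 12506 and 13483 in *Atp6ap2* iECKO cells (12884 ± 525). The groups did not overlap, and the spread within a genotype was small, at the 4.76 percentile of all genes. The log2 fold change was -0.27 (SE 0.083, 95% interval -0.46 to -0.082), the mean 82.8% of control, and the unadjusted *P* 0.0110 became 0.0871 after adjustment in limma. Under 18 other settings the estimates for *Foxf1* ranged from -0.31 to -0.23, with adjusted *P* values from 0.0729 to 0.362. *Foxo1* (chr3:52268336-52353221, plus strand) was at 6133, 5356 and 4772 in controls and at 4749, 4820.4 and 4495 in *Atp6ap2* iECKO cells. Its groups overlapped only at the lowest control library, and the log2 fold change was -0.20 (SE 0.10, 95% interval -0.44 to 0.033, adjusted *P* = 0.276).

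*Mef2c* (chr13:83504034-83667080, plus strand), which acts downstream of VEGF and flow signalling, was at 7713, 5506 and 4708 in controls and at 5536, 5579 and 5530.4 in *Atp6ap2* iECKO cells. The *Atp6ap2* iECKO libraries differed by a coefficient of variation of 0.480%, against 26.1% in controls, where replicate 1 was far above the other 2. The log2 fold change was -0.076 (SE 0.16, 95% interval -0.45 to 0.30, adjusted *P* = 0.825). Without control replicate 1 it was 0.12 (adjusted *P* = 0.449).

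**Figure D2:**
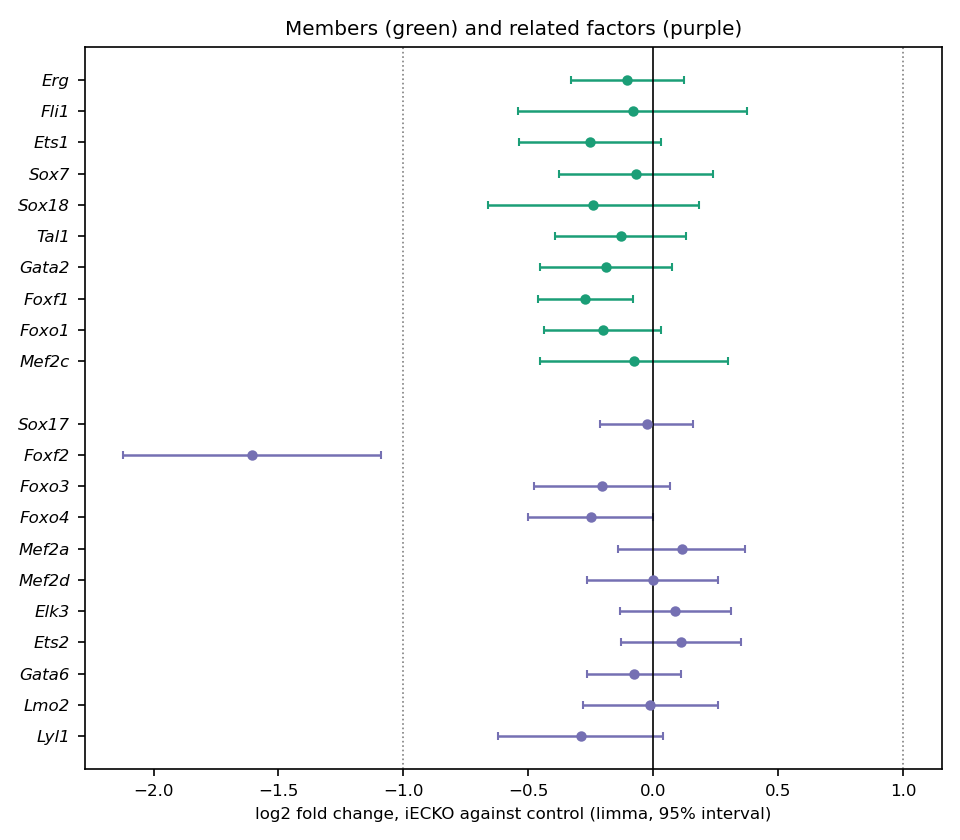
Log2 fold change with its 95% interval from limma for the 10 lineage factors (green) and for related factors (purple), with dotted lines at a 2-fold change. Every green interval lies between the dotted lines and only that of *Foxf1* (-0.46 to -0.082) excludes 0, whereas *Foxf2* lies at -1.60.

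Control libraries accounted for the highest value of every factor. The highest library was a control for 10 of 10 factors (54.1% of all genes), control replicate 1 for 8 (19.4% of all genes) and control replicate 2 for *Sox18* and *Gata2*. As log2 deviations from the mean of the 6 libraries, the median over the 10 factors was 0.20 in control replicate 1, 0.084 in control replicate 2 and -0.092 in control replicate 3. In the *Atp6ap2* iECKO libraries the medians were -0.068, -0.012 and -0.11. By this median control replicate 3 lay among the *Atp6ap2* iECKO libraries, but not for each factor. For *Foxf1* it was above every *Atp6ap2* iECKO library (15478 against at most 13483). For *Mef2c* it was below every one (4708 against at least 5530.4). Control replicate 1 was also the library with the highest sum of 20 endothelial markers, 663735, where the other libraries lay between 500554 and 603788. The next highest, 603788, was that of *Atp6ap2* iECKO replicate 1, which had the lowest sum of the 10 factors (90264.3). In that library *Ets1* was at 22736, against 29562 and 28876 in the other *Atp6ap2* iECKO libraries. By the median deviation it was not the lowest library (-0.068, against -0.11 in *Atp6ap2* iECKO replicate 3). Of the 20 endothelial markers 0 passed the threshold and their median log2 fold change was 0.047. The part of endothelial content in the values of the factors was not tested. In bulk samples fewer cells of a type cannot be told apart from less RNA per cell.

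**Figure D3:**
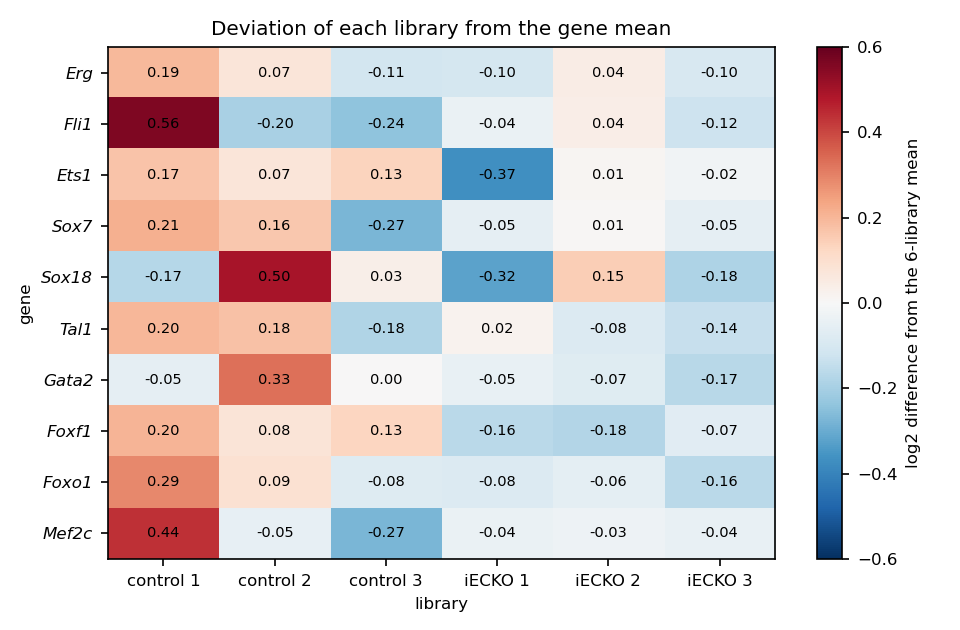
Log2 difference of each library from the 6-library mean for each factor (rows) in each library (columns), red above and blue below the mean. Control replicates 1 and 2 are each above the mean for 8 of the 10 factors, and *Atp6ap2* iECKO replicate 3 for 0.

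By level per kilobase of exon, which corrects for length, the order over the 6 libraries was *Foxf1* (5888.5), *Sox7* (4916), *Ets1* (3485), *Sox18* (3089.6), *Gata2* (2113), *Erg* (1960.6), *Fli1* (1124), *Tal1* (927), *Foxo1* (583) and *Mef2c* (367). The first was 16.1-fold above the last. Ranges over the libraries overlapped for 5 of the 9 neighbouring pairs: *Foxf1* and *Sox7*, *Ets1* and *Sox18*, *Sox18* and *Gata2*, *Gata2* and *Erg*, and *Fli1* and *Tal1*. Per kilobase of coding sequence the order began with *Ets1* (22380.4), *Sox7* (14226) and *Foxf1* (12540.3) and ended with *Fli1* (2890.1) and *Foxo1* (2584). Only *Sox7* held its rank, and first stood 8.66-fold above last. *Mef2c* and *Ets1*, whose annotated exons are long beside their coding sequence, moved up the most on the coding scale.

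**Figure D4:**
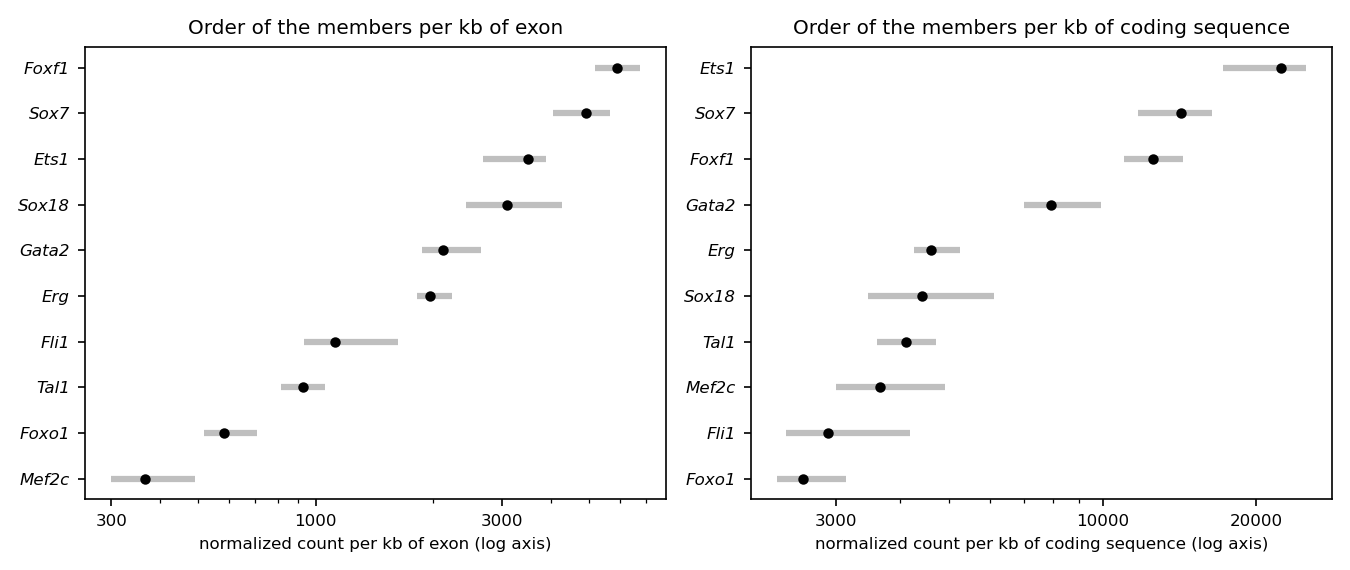
Mean normalized count (points) and range over the 6 libraries (bars) of each factor per kilobase of exon (left) or coding sequence (right), on log axes. *Sox7* is in the same place in both panels, and *Ets1* moves up 2 places, from 3485 to 22380.4.

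Among 231 genes of the lists used here with a mean of at least 100, the gene whose log2 values followed each factor most closely over the 6 libraries was named, by the root mean square difference after centring. *Sox7* lay closest to *Nfib* (0.035) and *Foxo1* to *Elf1* (0.035). The nearest to *Erg* was *Gabpa* (0.050), to *Tal1* *Klf6* (0.055), to *Foxf1* *Bcl2l11* (0.057), to *Mef2c* *Foxn3* (0.058), to *Gata2* *Klf4* (0.068) and to *Ets1* *Kit* (0.075). *Fli1* had *Mef2c* as its nearest (0.090), which shares the high value in control replicate 1. The largest difference was that of *Sox18*, with *Sox12* at 0.12. The differences were not scaled to the spread of each factor. Its root mean square about its own mean was 0.27 for *Sox18* and for *Fli1*, and 0.11 for *Erg*. These 6 points share libraries and scaling, and the likeness is a description.

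Relatives, partners and co-factors of the 10 were counted in the same fit. Of 90 tested in 7 lists, 1 was higher and 14 were lower, 16.7%, against 8.25% of all genes, with a median log2 fold change of -0.14. This count fell to between 4 and 9 without *Atp6ap2* iECKO replicate 1 (9), 2 (7) or 3 (5) or control replicate 2 (8) or 3 (4), and was 0 in the 4 libraries with *Xist*. No test compared these factors with the 10.

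In the ETS family 1 of 16 other factors passed the threshold. *Etv1*, a PEA3-group factor, fell by 1.25 on the log2 scale (SE 0.18, adjusted *P* = 0.0109 in limma), from 604, 953 and 904 to 358, 339 and 318. *Etv4* (0.96, adjusted *P* = 0.109) and *Etv5* (0.0028, adjusted *P* = 0.994), of the same group, did not fall and did not pass. *Elk3* and *Ets2* had log2 fold changes of 0.088 and 0.11 and did not pass. Of 8 other SOX genes 2 were lower, *Sox5* (-0.97, adjusted *P* = 0.0142) and *Sox4* (-0.42, adjusted *P* = 0.0496). In the TAL1 complex and its partners 2 of 13 were lower, the homeobox factor *Hhex* (-0.59, adjusted *P* = 0.0270) and *Lmo4* (-0.40, adjusted *P* = 0.0335). When each of the 6 libraries was left out in turn, the call held in 6 fits for *Etv1*, 3 for *Sox5*, 2 for *Hhex*, 1 for *Lmo4* and 0 for *Sox4*. The bridging subunit *Lmo2* was at -0.011 (adjusted *P* = 0.969), and *Ldb1*, which joins the complex to enhancers, at -0.34 (adjusted *P* = 0.0665).

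*Foxf2*, the sister gene of *Foxf1* and a regulator of pericytes and fibroblasts, was at 632, 1103 and 1119 in controls and at 339, 289.7 and 280.4 in *Atp6ap2* iECKO cells. All *Atp6ap2* iECKO values lay below all controls, and *Foxf2* fell by 1.60 on the log2 scale (SE 0.22, adjusted *P* = 0.0104), a call that held without any 1 library. Of the 20 other forkhead genes *Foxs1* (-1.95) and *Foxq1* (-1.58) were also lower and *Foxm1*, which drives mitotic genes, was higher (0.86, adjusted *P* = 0.0335). *Foxo3* (-0.20) and *Foxo4* (-0.25), the relatives of *Foxo1*, did not pass. Among 5 other GATA factors *Gata5* fell by 2.08, and *Gata6* was at -0.078 (adjusted *P* = 0.620). Of 6 MEF2 factors and class IIa deacetylases only *Hdac5*, which represses MEF2, was lower (-0.52, adjusted *P* = 0.0234), while *Mef2a* was at 0.11 and *Mef2d* at -0.0026. With 1 library left out, *Foxs1*, *Foxq1*, *Foxm1* and *Gata5* were each called in 1 of 6 fits and *Hdac5* in 2.

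Among 22 further endothelial factors 4 were lower: *Mecom*, used in arterial and large-vessel endothelium, the venous factor *Nr2f2*, the Notch effector *Hey1*, and *Meox2*. *Mecom* was at 1728, 2221 and 2308 in controls and at 978, 1047 and 829 in *Atp6ap2* iECKO cells (log2 fold change -1.13, adjusted *P* = 0.00848 in limma). *Nr2f2* was at 1482, 1892 and 1734 in controls and at 1009, 1014 and 1003 in *Atp6ap2* iECKO cells (-0.75, adjusted *P* = 0.0104). Both calls held without any 1 library. *Hey1* (-0.80) and *Meox2* (-1.36) were called in 5 and 3 of the 6 such fits.

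Several of these relatives are used by fibroblasts or mural cells as well. In the same libraries 15 of 19 fibroblast markers and 12 of 18 mural markers passed the threshold, all lower in *Atp6ap2* iECKO cells, with median log2 fold changes of -1.36 and -1.53. Their summed normalized counts ran from 250966 to 312236 (fibroblast) and from 33419 to 48520.3 (mural) in controls, and from 128981 to 185898 and from 13297 to 17219.6 in *Atp6ap2* iECKO libraries, with 0 markers at 0 in every library. The groups did not overlap in either sum. The lists hold 26 distinct called markers, a count of 14 without *Atp6ap2* iECKO replicate 2 and of 13 without *Atp6ap2* iECKO replicate 3 or control replicate 3. Some of these markers (*Pdgfrb*, *Notch3* and collagens) are among genes the study picked from these libraries. Of 16 epithelial markers 1 (*Scgb1a1*) was higher, a call that held in 1 of the 6 fits without a library, and of 18 leukocyte and 8 lymphatic markers 0 passed. The part of fibroblast and mural RNA in the values of *Foxf1*, *Foxf2*, *Etv1*, *Mecom* and *Nr2f2* was not tested.

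Genes known as targets of the 10 factors were taken from hand-written lists, 76 distinct tested genes other than the members. Of these 2 were higher and 8 lower (13.2%, against 8.25% of all genes), with a median log2 fold change of -0.083. The count was 1 without *Atp6ap2* iECKO replicate 3, 2 without *Atp6ap2* iECKO replicate 2 or control replicate 2 or 3, and 0 in the 4 libraries with *Xist*. Of 25 ERG and ETS targets, which include the junction genes *Cdh5* (0.066) and *Pecam1* (0.12), 2 were lower, with a list median of 0.028. SOXF targets had 3 of 11 lower (median -0.28), TAL1 and GATA2 targets 1 higher and 1 lower of 15 (0.12), and FOXF1 targets 2 higher and 1 lower of 16 (0.020). FOXO1 targets had 2 of 25 lower (median -0.22), *Irs2* (-0.92) and *Cited2* (-0.62), and MEF2 targets 3 of 11 lower (-0.45), among them *Cxcl12* (-0.53). With 1 library left out, *Irs2* was called in 3 of 6 fits and *Cited2* and *Cxcl12* in 1 each. Lists share genes, with *Tek* and *Dll4* each in 3 of them. These 2 are the called ERG and ETS targets, and both are also among the 3 called MEF2 targets. The called targets *Hhex* and *Nr2f2* are also counted among the called relatives and partners above.

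*Tek*, the angiopoietin receptor TIE2, was at 25973, 22236 and 22872 in controls and at 18165, 16302 and 14963 in *Atp6ap2* iECKO cells. The groups did not overlap, and *Tek* fell by 0.53 on the log2 scale (SE 0.11, adjusted *P* = 0.0292). It is among the genes the study picked from these libraries and is no independent evidence. *Dll4*, the Notch ligand of tip cells, was at 19519.5, 20036 and 19122 in controls and at 15544, 15826 and 15196 in *Atp6ap2* iECKO cells. It fell by 0.33 (SE 0.080, adjusted *P* = 0.0432), a call that was lost without any 1 of the 6 libraries and that of *Tek* held in 1 of those 6 fits. *Efnb2*, an arterial ephrin, fell by 0.73 (adjusted *P* = 0.0256). *Apln*, a tip cell peptide, rose by 0.87 (adjusted *P* = 0.0284) and *Cd34* by 0.43 (adjusted *P* = 0.0448), each of them called in 1 of the 6 fits without a library, as was *Efnb2*.

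**Figure D5:**
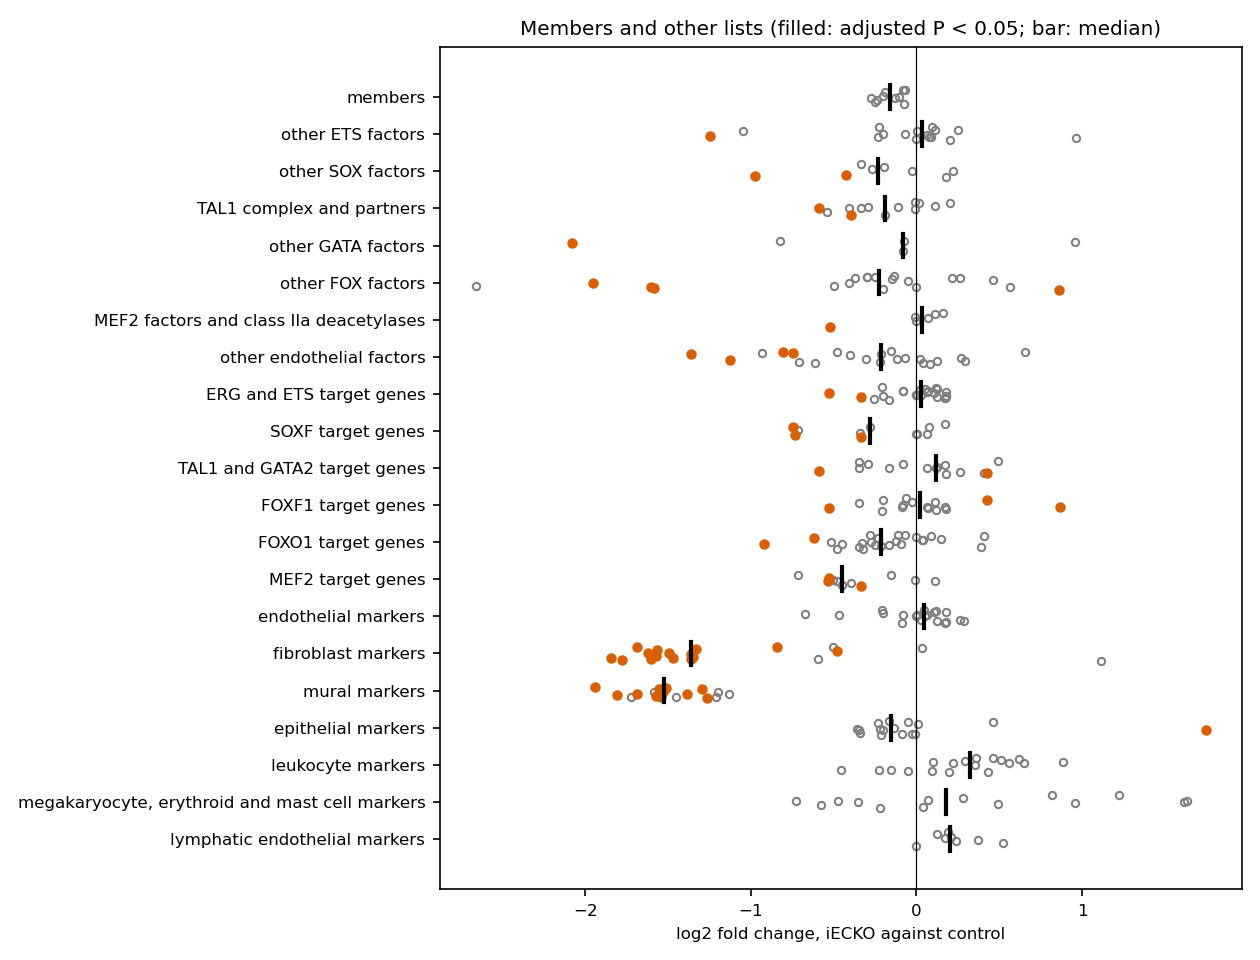
Log2 fold change of each tested gene in the 10 factors (members) and in lists of relatives, target genes and cell type markers, filled where the adjusted *P* was below 0.05, with a bar at each median. The 10 factors lie between -0.27 and -0.068 with none filled, and fibroblast and mural markers have medians of -1.36 and -1.53.

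The promoters of 2 of the factors and of the 2 called ETS targets are shown because all 4 carry the letters that ETS factors recognise. Windows are the 250 bases before to 50 after an annotated start, from RefSeq (GRCm38.p6), in the direction of transcription, with the ETS core GGAA or its complement TTCC in capitals.
Erg (chr16:95459299-95459598, minus strand): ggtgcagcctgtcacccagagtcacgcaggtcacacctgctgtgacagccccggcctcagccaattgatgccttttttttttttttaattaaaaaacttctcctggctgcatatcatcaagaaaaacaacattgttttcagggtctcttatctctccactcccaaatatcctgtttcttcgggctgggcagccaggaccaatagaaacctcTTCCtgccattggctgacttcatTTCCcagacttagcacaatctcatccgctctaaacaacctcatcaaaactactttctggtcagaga
Tal1 (chr4:115056176-115056475, plus strand): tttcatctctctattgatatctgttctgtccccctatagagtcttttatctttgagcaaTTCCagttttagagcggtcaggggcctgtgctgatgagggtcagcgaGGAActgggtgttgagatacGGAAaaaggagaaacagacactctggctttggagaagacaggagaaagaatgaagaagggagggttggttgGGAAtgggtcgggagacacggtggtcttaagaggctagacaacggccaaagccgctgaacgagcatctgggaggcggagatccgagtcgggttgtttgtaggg
Tek (chr4:94739039-94739338, plus strand): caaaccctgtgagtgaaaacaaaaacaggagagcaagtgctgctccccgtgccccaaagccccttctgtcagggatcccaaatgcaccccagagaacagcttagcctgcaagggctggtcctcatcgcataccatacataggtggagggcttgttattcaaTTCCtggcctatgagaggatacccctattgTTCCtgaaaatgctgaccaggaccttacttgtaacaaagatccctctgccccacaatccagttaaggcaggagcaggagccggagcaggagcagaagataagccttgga
Dll4 (chr2:119325534-119325833, plus strand): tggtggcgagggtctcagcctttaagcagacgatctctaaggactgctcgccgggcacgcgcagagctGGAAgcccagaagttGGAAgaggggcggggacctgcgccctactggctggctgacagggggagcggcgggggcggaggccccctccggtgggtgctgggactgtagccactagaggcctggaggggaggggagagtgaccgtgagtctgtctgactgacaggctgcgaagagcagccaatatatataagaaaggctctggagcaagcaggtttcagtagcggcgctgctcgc
The *Erg* window belongs to a start inside the gene. RefSeq windows were matched for *Erg*, *Tal1*, *Gata2*, *Foxo1* and *Mef2c*, 11 in all. The ETS core was in 11 of these 11, as in 96.0% of all 32851 windows of the same length, on either strand. The GATA letters AGATAA were in 2 (*Erg* and *Tal1*, both shown above), against 11.2% of all windows, and the SOX letters ACAAT in 2 (*Erg* and *Mef2c*), against 31.02%. E-box letters CANNTG were in 6 of 11 (72.3% of all windows). The longer ETS letters CCGGAAGT and the FOX and ETS composite AACAGGAA, which both contain the core, and the forkhead letters GTAAACA and the MEF2 letters CTA and TAG with 4 bases between were in 0 of 11, against 3.89%, 2.65%, 3.65% and 3.69% of all windows. A match is a description of these letters, and the table does not say which start a library used. No window was matched for *Fli1*, *Ets1*, *Sox7*, *Sox18* and *Foxf1*.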

How the data were processed

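The 6 iLEC libraries (P7) were grouped by genotype as labelled, 3 control and 3 *Atp6ap2* iECKO. Per the labels and the study's methods, the authors made TruSeq libraries, aligned reads to mm10 and quantified genes with BaseSpace tools. The deposited values are a normalized signal (normalized counts). The labels call them raw counts, but between 0.16% and 0.26% of the non-zero values of a library lay within 0.001 of a whole number, and the median ratio to the geometric mean was 1.0036 in all 6, so no count model was used. Read numbers are unknown, so precision is given by the spread over 3 libraries. The study calls these biological replicates and does not state whether each was 1 mouse or a pool.

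Log2 of the normalized count plus 1 was fitted for 14456 genes (at least 10 in at least 3 libraries) in limma (version 3.58.1, R 4.3.3), with a trend of variance on mean and without covariates. The Benjamini-Hochberg procedure over these genes gave adjusted *P* values (threshold 0.05, no fold minimum). On simulated data with 200 changed genes 177 were called, 0 in the wrong direction. Whether differences as small as those of the lineage factors would be called was not tested. Single values were compared with an exact two-sided permutation test (scipy 1.17.1). Of the symbols 24490 (98.1%) matched GENCODE M21 (GRCm38), used for coordinates and lengths. Promoters were from RefSeq. Figures were drawn with matplotlib 3.10.9.

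All members were named, with, of each other list, up to 6 genes past the threshold by adjusted *P*, some others with a high normalized count, the nearest gene to each member, and *Atp6ap2* and *Xist*. *Sox17*, *Lmo2*, *Ldb1*, *Gata6*, *Foxo3*, *Foxo4*, *Etv4* and *Etv5* were named as relatives or partners after their values were seen. Members and lists were chosen with earlier results of these data known. Alternatives were other scalings, filters, pseudocounts, variance models, lengths, a replicate block, an *Xist* covariate and each library left out. The 4 libraries with *Xist* alone were added after seeing the data.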

Additional observations from a re-analysis of the deposited data

How the results depend on the processing

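Of 180 fits of the 10 factors under 18 alternatives, 0 passed the threshold and 4 turned the sign: *Fli1* with array weights (0.0246, adjusted *P* = 0.941 in limma), and without control replicate 1 *Fli1* (0.18), *Sox7* (0.021) and *Mef2c* (0.12). The sign of the 3 rests on that library. Without 1 library the log2 fold change of *Fli1* ran from -0.22 to 0.18, *Sox7* from -0.22 to 0.021, *Mef2c* from -0.23 to 0.12, *Erg* from -0.18 to -0.033, *Ets1* from -0.32 to -0.13, *Sox18* from -0.39 to -0.052, *Tal1* from -0.25 to -0.063, *Gata2* from -0.26 to -0.070, *Foxf1* from -0.31 to -0.24 and *Foxo1* from -0.29 to -0.11.

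Over all genes 1193 were called (474 higher, 719 lower), against 767 with the *Xist* covariate, 304 without the mean-variance trend, 1 in the 4 libraries with *Xist* and 204 to 989 without 1 library. Scaling to endothelial genes gave 621 (176 higher, 445 lower) and equal totals 573 higher and 599 lower. Relatives and partners went from 15 to 0 in the 4 libraries with *Xist*, 5 without the trend and 4 to 19 without 1 library, and targets from 10 to 0, 1 and 1 to 8. Fibroblast and mural markers went from 26 to 0, 14 and 13 to 26. Other cell type markers went from 1 to 3 with array weights, to 2 with a minimum of 50, equal totals or equal upper quartiles, to 0 with the *Xist* covariate or in the 4 libraries with *Xist*, and to 0 to 3 without 1 library. *Atp6ap2* was at -1.19 (adjusted *P* = 0.222) in the 4 libraries, -1.22 without the trend, where it was not called, and -1.54 to -0.999 without 1 library. By coding length 1 factor kept its rank. The causes were not tested, beyond fewer samples where libraries are left out.

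The genotypes share replicate numbers, and deviations of same-numbered libraries correlated by 0.25, 0.11 and 0.078. Their mean was 0.15, against -0.074 for libraries of different number. The numbers were not taken as pairs in the main fit, and whether same-numbered libraries share a batch was not tested. With a replicate block 1508 genes were called (670 higher, 838 lower), 0 of the 10 factors and 4 of the other cell type markers, and *Foxf1* had an adjusted *P* of 0.0729. Each genotype has 3 libraries of unknown read number, which limits what changes can be seen, as the interval of each factor shows.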
